A study of Saccharomyces cerevisiae W303 with 16 samples.

Results

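The comparison described here asked whether the mRNA response of yeast to a temperature upshift was the same with and without functional eRF1. It used all 8 RNA-Seq libraries of the study, of 16 libraries in all, and took for every transcript the heat response of *sup45-ts* cells (37°C over 25°C) minus the heat response of *SUP45* cells. A difference of this kind is called the interaction below, and it is given on the log2 scale unless a fold is stated. Transcripts were then sorted into heat responses that were weaker, stronger, reversed or gained in the mutant.

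Both strains were *Saccharomyces cerevisiae* of the W303 background, mating type a, and carried *ade2-1*, *can1-100*, *his3-11,15*, *trp1-1*, *ura3-1* and *leu2-3,112*. The *SUP45* strain had wild-type eRF1, and *sup45-ts* carried the *sup45-2* allele, put in place of the wild-type gene by pop-in/pop-out replacement. Cultures in rich glucose medium (YPD) were grown at 25°C and either moved to 37°C for 30 min or taken through a mock shift at 25°C, and each combination of strain and temperature had 2 RNA-Seq libraries made from total RNA depleted of rRNA. The mutant was 1 derived strain, so the allele and any other difference between the strains cannot be told apart. No label or method states that the replicates came from separate cultures, and the p-values therefore measure only the spread between these libraries, which may be technical.

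eRF1, encoded by *SUP45*, recognises stop codons in the ribosomal A site and, together with the GTPase eRF3 (Sup35), releases the finished peptide. Heat shock in yeast works through several transcription programmes at once. Hsf1 drives genes for chaperones, Msn2 and Msn4 drive a general stress programme that includes trehalose and glycogen enzymes, and genes for ribosomal proteins and ribosome assembly factors are shut down. Proteasome genes answer to Rpn4, and genes for folding in the endoplasmic reticulum (ER) answer to Hac1, whose mRNA is spliced by Ire1 when unfolded proteins build up in the ER.

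The libraries held between 107324550 and 153654244 expected counts, and 6767 of 6952 transcripts passed the filter on low counts. Normalisation factors (TMM) were 0.777 to 0.849 at 25°C and 1.2 to 1.264 at 37°C, so the size of a heat response within a strain depended on how libraries were scaled. Scaling by library totals alone moved the median heat response of all transcripts from 0.01 to 0.56 in *SUP45* cells and from 0.03 to 0.66 in *sup45-ts* cells, whereas the median interaction went from -0.02 to 0.07. The median interaction thus depended little on the scaling, although counts of calls within some lists moved with it. The words induced and repressed below mean relative to the median transcript under TMM. The values are shares of the RNA in a library, with no spike-in entering them, so less RNA per cell and fewer cells with that RNA cannot be told apart. At 25°C the strains were close. edgeR's quasi-likelihood test called 9 transcripts different between them after Benjamini-Hochberg adjustment, against 117 with DESeq2 and 877 at an unadjusted p under 0.05.

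The heat response differed between the strains for 4746 transcripts, which is 70.1% of those tested (edgeR quasi-likelihood interaction, adjusted p under 0.05). In *sup45-ts* cells 2333 transcripts (34.5%) responded with a higher value and 2413 (35.7%) with a lower value than in *SUP45* cells. More than 2-fold differences were seen for 1113 transcripts in the higher direction (16.4%) and 784 in the lower direction (11.6%). Within *SUP45* cells 2601 transcripts rose (38.4%) and 2530 fell (37.4%) on the shift. Within *sup45-ts* cells 3015 rose (44.6%) and 2840 fell (42%). The responses also spread more widely in the mutant, with a standard deviation over transcripts of 1.88 against 1.30, and for 4802 of 6767 transcripts the absolute response was larger in *sup45-ts*.

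Across transcripts the responses of both strains ran together (Pearson r = 0.746, Spearman rho = 0.74 over 6767 transcripts, which are not independent replicates and share normalisation). The slope of the *sup45-ts* response on the *SUP45* response was 1.08, and it was 1.14 and 1.08 when computed from the replicate 1 and replicate 2 libraries. It fell between 1.00 and 1.09 when libraries were left out in turn, the lowest without *SUP45* 25°C replicate 1. A slope near 1 beside a correlation of 0.746 describes a mutant response that had the same general shape and a wide scatter of single transcripts around it. The slope does not measure the size of the responses, whose standard deviation was 1.88 in *sup45-ts* against 1.30 in *SUP45* cells.

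**Figure D1:**
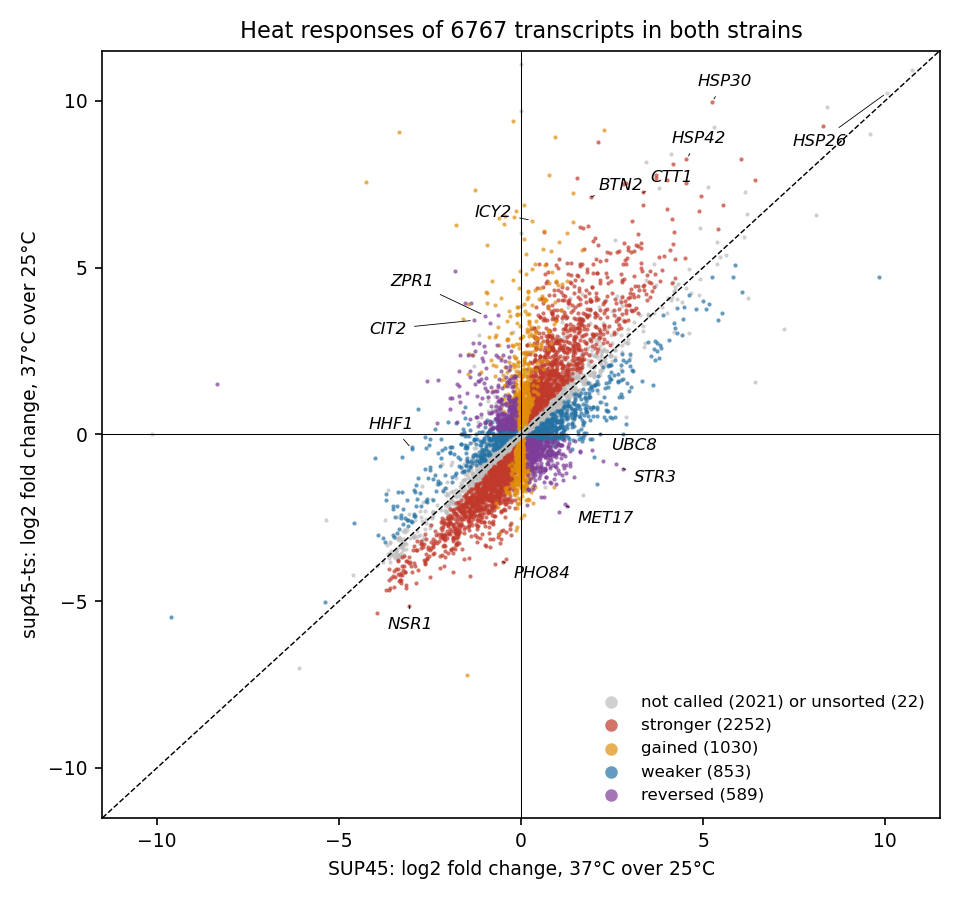
Heat response of each of 6767 transcripts in *SUP45* cells (x axis, log2 fold change of 37°C over 25°C) and in *sup45-ts* cells (y axis, same scale), 1 point per transcript, coloured by class, with equality as the dashed line. Points scatter widely around the diagonal (r = 0.746). The 2252 stronger transcripts lie farther from 0 in the mutant, and the 589 reversed transcripts lie at the upper left and lower right.

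The 4746 transcripts were sorted by direction. A stronger response, in the same direction as in *SUP45* cells but larger, was the most frequent class with 2252 transcripts (33.3% of those tested), of which 1095 were induced and 1157 repressed. A weaker response was found for 853 transcripts (12.6%), 504 induced and 349 repressed in *SUP45* cells. A gained response, called in *sup45-ts* and not in *SUP45* cells, was found for 1030 transcripts (15.2%), of which 600 were induced and 430 repressed. A reversed response, called in both strains with opposite signs, was found for 589 transcripts (8.7%), 311 induced in *SUP45* cells and repressed in *sup45-ts* and 278 the other way round. A further 22 transcripts had a called interaction with no called heat response in either strain, and for 2021 no interaction was called.

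The sizes differed by class. Induced transcripts of the stronger class had a median heat response of 0.83 in *SUP45* and 2.01 in *sup45-ts*, and repressed ones -0.83 and -1.70. In the weaker class the medians were 1.03 and 0.27 for induced transcripts and -0.95 and -0.25 for repressed ones. On the TMM scale a typical member had thus lost most of its response. Reversed transcripts were modest responders in both strains, with medians of 0.45 and -0.54 or of -0.43 and 0.64. These medians describe the sorting and are not a separate test of it.

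The calls of the reversed and gained classes depended on scaling. When libraries were scaled by totals alone, 587 of the 589 reversed transcripts still had an interaction called in the same direction (99.7%), but only 119 (20.2%) were sorted as reversed, since the heat responses of both strains were shifted upward together. Of the 1030 gained transcripts 159 (15.4%) had that class under library totals, of the 853 weaker ones 547 (64.1%) and of the 2252 stronger ones 1672 (74.2%). The statement that a response went the opposite way in *sup45-ts* is therefore relative to the median transcript, and heat responses under library totals are given beside the reversed genes described below.

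Of 30 listed heat shock chaperone and co-chaperone genes, 29 were raised by heat in *SUP45* cells and 28 in *sup45-ts* cells. Some of them rose far more in *sup45-ts* cells. In the mutant 15 of these 30 genes had a higher response, against 34.5% of all transcripts. A lower response was called for 5, against 35.7% of all transcripts, and 10 had no called difference. The median response was 2.38 in *SUP45* and 3.58 in *sup45-ts*. The median interaction was 0.56 (all transcripts, -0.02), with an SE of 0.09 from the list's median in each library (n = 2 libraries per group). The gene with the largest difference was *BTN2* (YGR142W, chromosome VII, 772454 to 773686 in R64), which encodes a sorting factor that gathers misfolded proteins into deposits. Its normalised counts (CPM, reads scaled to a common library size) were 40.7 and 48 in *SUP45* at 25°C, 178 and 160 in *SUP45* at 37°C, 34.9 and 31.9 in *sup45-ts* at 25°C, and 4691 and 4602 in *sup45-ts* at 37°C. The *sup45-ts* libraries at 37°C stood far above all others. The 3.81-fold rise in *SUP45* cells compared with a 139-fold rise in *sup45-ts* cells, an interaction of 5.19 ± 0.16 (SE, adjusted p = 4.3e-08).

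Several other chaperone genes also rose further in the mutant. *HSP42* (YDR171W, chromosome IV, 806621 to 807748), a small heat shock protein that sequesters misfolded proteins, stood at 18.9 and 13.7 CPM in *SUP45* at 25°C, 391 and 368 in *SUP45* at 37°C, 19.1 and 16.6 in *sup45-ts* at 25°C, and 5064 and 5774 in *sup45-ts* at 37°C, an interaction of 3.70 ± 0.22. *APJ1*, an Hsp40 co-chaperone, rose 1.61-fold and 23.5-fold in *SUP45* and *sup45-ts*, and *FES1*, a nucleotide exchange factor of cytosolic Hsp70, 1.52-fold and 21.3-fold. *SIS1*, the essential Hsp40 partner of Hsp70, rose 2.56-fold and 12.8-fold (interaction 2.32 ± 0.14, adjusted p = 1.2e-06). The disaggregase genes *HSP104* and *HSP78*, cytosolic and mitochondrial, had interactions of 1.82 ± 0.17 and 2.31 ± 0.14, and the Btn2 paralogue *CUR1* one of 2.02 ± 0.13.

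The 4 chaperone genes with the largest heat responses in *SUP45* cells, *HSP26*, *SSA4*, *HSP82* and *SSA3*, had interactions of 0.19 to 0.95. *HSP26*, a small heat shock protein, went from 2.89 and 7.38 CPM to 5440 and 5352 in *SUP45* and from 3.39 and 3.31 to 4024 and 4101 in *sup45-ts*, and its interaction was 0.19 ± 0.45 (adjusted p = 0.719). The sign of that value changed with a 25°C library, being 0.73 without *SUP45* 25°C replicate 1, where it passed the threshold, and -0.62 without replicate 2. *SSA1* (Hsp70) had an interaction of 0.34 ± 0.22 (adjusted p = 0.188), *SSA4*, the stress-inducible Hsp70, 0.95 ± 0.18 (adjusted p = 0.00133) and *HSP82* (Hsp90) 0.75 ± 0.19 (adjusted p = 0.00659). *SSA1* and *SSA2* are close paralogues among which reads may be split with error. *HSF1* mRNA rose 1.79-fold and 1.9-fold with no called difference (adjusted p = 0.367). Among the 5 listed chaperone genes with a lower response were *HSP10*, the mitochondrial co-chaperonin (interaction -1.10), and *MGE1*, the exchange factor of mitochondrial Hsp70 (-1.15). Chaperones outside the list could go the other way. The chaperonin genes *CCT2* to *CCT8* fell in both strains and further in *sup45-ts*, with interactions of -1.65 (*CCT4*) to -0.77 (*CCT7*).

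Every one of the 36 Msn2/4 stress genes was raised in both strains, with medians of 3.60 and 4.04. The interaction was called higher in *sup45-ts* for 18 genes and lower for 8, against 34.5% and 35.7% of all transcripts. The median interaction of 0.26 was smaller than the SE of 0.38 taken from the library medians. *CTT1*, the cytosolic catalase (YGR088W, chromosome VII, 654634 to 656322), differed most, at 7.69 and 6.46 CPM in *SUP45* at 25°C, 69.5 and 76.6 in *SUP45* at 37°C, 7.97 and 7.71 in *sup45-ts* at 25°C, and 1221 and 1168 in *sup45-ts* at 37°C. This was a 10.3-fold against a 152-fold rise (interaction 3.89 ± 0.14, adjusted p = 7.7e-08). *SPI1*, a cell wall protein, had responses of 4.54 and 7.54. Among the genes of reserve carbohydrates, the trehalose synthase subunit *TSL1* and the glycogen synthase *GSY2* each had an interaction of 1.03 (SE 0.23 and 0.13), and *TPS1*, the catalytic subunit for trehalose 6-phosphate, one of 0.03 ± 0.18 (adjusted p = 0.88). *DDR2* had one of 1.18 ± 0.35 (adjusted p = 0.013) that did not pass without *SUP45* 25°C replicate 1 (1.17), and *HXT5*, a hexose transporter of slow-growing cells, one of 0.39 ± 0.13 that was not called in 4 of 8 leave-one-out fits, with values of 0.34 to 0.38. *HSP12*, a membrane-protecting heat shock protein, had -0.57 ± 0.34 (adjusted p = 0.16), and without *SUP45* 25°C replicate 2 this was -1.09 and passed the threshold. The 8 genes with a lower response included the glucokinase *GLK1* (interaction -1.44 ± 0.36) and the aldehyde dehydrogenase *ALD3* (-1.30).

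The mRNAs of the stress regulators themselves changed unequally. *MSN4* had no called response in *SUP45* cells, with 51.8 and 38.2 CPM at 25°C and 47.7 and 43 at 37°C, and rose in *sup45-ts* from 59.4 and 53.9 to 159 and 147 (interaction 1.42 ± 0.18). *CIN5*, a basic leucine zipper factor of salt and oxidative stress, was also gained, with an interaction of 2.53 ± 0.11. *ROX1*, the repressor of hypoxic genes, fell in *SUP45* cells and rose in *sup45-ts* cells (-1.15 and 2.75). Its 25°C values in *sup45-ts* were apart, at 14.2 and 27.4 CPM, and the 37°C values were 130 and 151. Under library totals its responses were -0.60 and 3.38, still opposite in sign. *GCN4* mRNA had no called interaction (-0.24 ± 0.15, adjusted p = 0.182).

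Ribosome assembly genes were shut down in both strains and more deeply in *sup45-ts*. Of 75 ribosome biogenesis genes 69 had a lower response in the mutant, against 35.7% of all transcripts, and 6 were not called. The medians were -1.78 and -2.65 and the median interaction -0.91 ± 0.08. DESeq2 called 71 lower. *NSR1*, the yeast nucleolin (YGR159C, chromosome VII, 806412 to 807656), had 772 and 782 CPM in *SUP45* at 25°C, 92.7 and 92.5 in *SUP45* at 37°C, 851 and 866 in *sup45-ts* at 25°C and 23.4 and 25.4 in *sup45-ts* at 37°C. Its 8.39-fold fall thus compared with a 35.2-fold fall (interaction -2.07 ± 0.10, adjusted p = 4.1e-07). *RRS1* and *NOG1*, assembly factors of the large subunit, had interactions of -1.78 and -1.62, *NOP56*, a core protein of box C/D snoRNPs, -1.15, *RPA190*, the largest subunit of RNA polymerase I, -0.91, and *UTP4* of the small-subunit processome -0.77.

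Ribosomal protein genes gave another picture. All 137 fell in *sup45-ts* and 136 fell in *SUP45* cells, with medians of -3.36 and -3.25. Of these, 51 had a lower response in the mutant, a share near the 35.7% of all transcripts. A higher one was called for 26 (34.5% of all transcripts), and 60 were not called. Under library totals 45 were lower and 36 higher, and under upper-quartile scaling 41 and 35. The median interaction was -0.15, with an SE of 0.11 from the library medians. The values ran from *RPL18B* at -1.71 ± 0.11 to *RPL22B* at 1.91 ± 0.26. Many of these genes are paralogue pairs among which reads can be split with error. The counts of higher calls ranged from 18 to 33 over the leave-one-out fits.

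Proteasome genes rose less in *sup45-ts* cells than in *SUP45* cells, or did not rise. All 32 subunit genes tested rose in *SUP45* cells, and all 32 had a lower response in *sup45-ts* (31 or 32 when single libraries were left out, 32 with DESeq2 and 31 under library totals), against 35.7% of all transcripts with a lower call. The responses in *SUP45* cells lay close together, from 0.42 to 1.17 with a median of 0.92. In *sup45-ts* cells they ranged from -1.32 to 0.50 with a median of -0.18, with 5 genes raised, 17 lowered and 10 without a called change, and the median interaction was -1.05 ± 0.02. *PRE1*, a beta subunit of the core particle (YER012W, chromosome V, 177835 to 178431), had 153 and 166 CPM in *SUP45* at 25°C, 349 and 356 in *SUP45* at 37°C, 149 and 142 in *sup45-ts* at 25°C, and 105 and 87.5 in *sup45-ts* at 37°C. The core subunit genes *PRE9* and *PUP3* had the largest interactions, -1.93 ± 0.09 and -1.82 ± 0.09, and *RPN5* of the lid the smallest, -0.39 ± 0.11 (adjusted p = 0.0113), which was not called under library totals (-0.31) or without *sup45-ts* 25°C replicate 2 (-0.34).

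On the TMM scale 17 of the 32 proteasome genes were sorted as reversed and 15 as weaker, whereas under library totals 4 were reversed and 27 weaker, with median responses of 1.47 in *SUP45* and 0.46 in *sup45-ts*. For *PRE1* the responses under library totals were 1.69 and 0.04. The smaller rise was thus seen under either scaling, whereas the number of genes called lower at 37°C than at 25°C in *sup45-ts* was 17 under TMM and 4 under library totals, and the number called higher was 5 under TMM, 13 under upper-quartile scaling and 24 under library totals. The mRNA of Rpn4, the activator of these genes, moved the other way. *RPN4* stood at 87.6 and 90.7 CPM in *SUP45* at 25°C, 155 and 152 in *SUP45* at 37°C, 76.4 and 77.7 in *sup45-ts* at 25°C, and 598 and 605 in *sup45-ts* at 37°C (interaction 2.18 ± 0.09, adjusted p = 1.2e-07). It rose 7.81-fold in *sup45-ts* cells and 1.72-fold in *SUP45* cells. *RPN4* overlaps *GPM2* on the other strand, which had responses of 5.83 and 4.73 (interaction -1.11). The RNA-Seq libraries were made with a stranded kit, but neither the labels nor the methods state whether counting used strand. The ubiquitin-selective segregase gene *CDC48* also had a lower response in *sup45-ts*, with responses of 0.71 and -0.53 that became 1.26 and 0.11 under library totals.

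**Figure D2:**
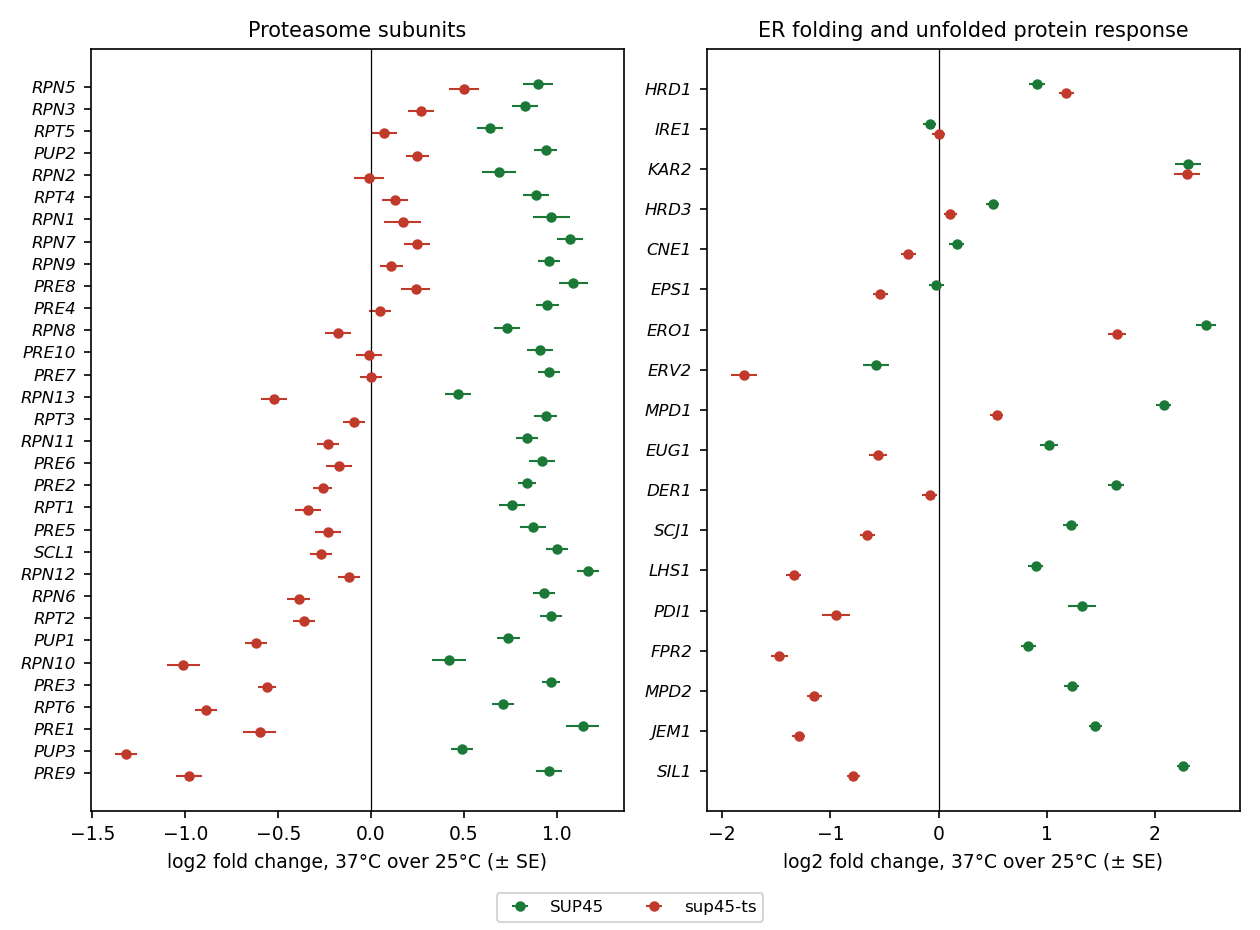
Heat responses (log2 fold change of 37°C over 25°C, x axis, with standard errors from edgeR) of 32 proteasome genes on the left and 18 genes of ER folding and the unfolded protein response on the right, in *SUP45* (green) and *sup45-ts* cells (red), ordered by interaction. All green points of the proteasome lie between 0.42 and 1.17 and all red points lie to their left, and in the ER panel the points of *KAR2* lie on each other near 2.3.

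ER folding genes showed the largest median interaction of the lists, -1.56 ± 0.06. Of 18 genes 15 rose in *SUP45* cells, and 15 had a lower response in *sup45-ts*, against 35.7% of all transcripts. The medians were 1.12 and -0.55. *SIL1*, the nucleotide exchange factor of the ER Hsp70 Kar2, had 78.5 and 76.1 CPM in *SUP45* at 25°C, 368 and 371 in *SUP45* at 37°C, 73.8 and 68.5 in *sup45-ts* at 25°C, and 42 and 40.4 in *sup45-ts* at 37°C (interaction -3.05 ± 0.09, adjusted p = 4.3e-08). *JEM1*, a J-domain partner of Kar2, had -2.74 ± 0.08, and the protein disulfide isomerase *PDI1* -2.28 ± 0.18. Under library totals the responses were 2.81 and -0.15 for *SIL1*, 2.00 and -0.66 for *JEM1*, and 1.88 and -0.32 for *PDI1*. The ER oxidase *ERO1* was raised in both strains, 5.53-fold and 3.13-fold. *KAR2* itself did not follow. Its values were 1544 and 1413 CPM in *SUP45* at 25°C, 7717 and 6923 in *SUP45* at 37°C, 1555 and 1348 in *sup45-ts* at 25°C and 7084 and 7245 in *sup45-ts* at 37°C, a 4.95-fold and a 4.94-fold rise with no called difference (adjusted p = 0.988). Under library totals the list medians were 1.67 and 0.08, and the number of genes sorted as reversed went from 9 to 5.

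The spliced *HAC1* transcript, the form that is translated into the activator of ER folding genes, was estimated at 3.5 and 2.33 CPM in *SUP45* at 25°C, 16.5 and 13 in *SUP45* at 37°C, 6.75 and 2.35 in *sup45-ts* at 25°C, and 4.85 and 7.32 in *sup45-ts* at 37°C. Values at 37°C were higher in both *SUP45* libraries than in any other, whereas those of *sup45-ts* at both temperatures overlapped. It rose 5.03-fold in *SUP45* cells and had a 1.34-fold difference in *sup45-ts* that was not called (adjusted p = 0.343), an interaction of -1.90 ± 0.58 (adjusted p = 0.0154). That call was lost without *sup45-ts* 25°C replicate 1, where the interaction was -0.96 (adjusted p = 0.0603), and without *sup45-ts* 37°C replicate 1, where it was -1.65 (adjusted p = 0.058). The spliced form made up 0.417% and 0.253% of *HAC1* expected counts in *SUP45* at 25°C, 1.6% and 1.08% in *SUP45* at 37°C, 0.693% and 0.276% in *sup45-ts* at 25°C, and 0.684% and 0.862% in *sup45-ts* at 37°C. These shares rest on how RSEM divides reads between transcripts that differ by an intron, and their true level is uncertain. Unspliced *HAC1* had an interaction of -0.56 ± 0.17.

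Histone genes were repressed by heat in *SUP45* cells and much less so in *sup45-ts*. All 10 fell in *SUP45* cells, with a median of -2.11, and the median was -0.76 in *sup45-ts*. The 8 core histone genes had a higher response in the mutant (34.5% of all transcripts did). The linker histone *HHO1* (-0.86) and the variant *HTZ1* (-0.49) had a lower one. *HHF1* (histone H4; YBR009C, chromosome II, 255373 to 255684) had 638 and 750 CPM in *SUP45* at 25°C, 82.8 and 91.1 in *SUP45* at 37°C, 624 and 674 in *sup45-ts* at 25°C, and 481 and 479 in *sup45-ts* at 37°C. The 7.98-fold fall in *SUP45* cells compared with a 1.35-fold fall (interaction 2.56 ± 0.14, adjusted p = 6.2e-07). Its neighbour *HHT1* (histone H3) had 2.38 ± 0.11 and *HTA1* (histone H2A) 2.20 ± 0.10. Each core histone has a near-identical paralogue, and the split between paralogues is uncertain. Under library totals 3 of 10 genes were sorted as reversed.

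Of 26 cell cycle and daughter cell genes 13 had a lower response in *sup45-ts* and 6 a higher one, against 35.7% and 34.5% of all transcripts. The G1 cyclin genes *CLN2* and *PCL1* were among the lowest, with interactions of -2.33 ± 0.17 and -3.14 ± 0.12. *CLN2* stood at 107 and 85.9 CPM in *SUP45* at 25°C, 52.8 and 43.9 in *SUP45* at 37°C, 106 and 102 in *sup45-ts* at 25°C, and 11 and 9.81 in *sup45-ts* at 37°C. The mitotic cyclin *CLB2* had -0.71 ± 0.08, and the daughter-cell glucanase *DSE2* -2.37 ± 0.14. The genes *DSE1*, *DSE3* and *DSE4* had no lower response, with interactions of -0.13, 1.34 and 0.04. Exceptions included *CLB4*, a B-type cyclin, at 1.59, with responses of -0.60 and 0.99 that were -0.05 and 1.63 under library totals.

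Glycolytic and fermentative genes had a lower response in *sup45-ts* for 15 of 19, against 35.7% of all transcripts. Their medians were -0.17 and -1.09, with a median interaction of -1.07 ± 0.12. *PGK1*, phosphoglycerate kinase, had 4513 and 3840 CPM in *SUP45* at 25°C, 7758 and 6721 in *SUP45* at 37°C, 5586 and 4427 in *sup45-ts* at 25°C, and 2876 and 3253 in *sup45-ts* at 37°C. Its responses of 0.79 and -0.71 were 1.34 and -0.07 under library totals. Enolase *ENO1* rose 5.13-fold and 1.61-fold, alcohol dehydrogenase *ADH1* had no called response in *SUP45* cells and fell 2.82-fold in *sup45-ts*, and pyruvate decarboxylase *PDC1* fell 2.15-fold and 6.25-fold. The genes with a higher response were *PYK2*, the alternative pyruvate kinase (0.56), and *PDC6*, the minor decarboxylase isozyme (2.45). The number of higher calls was 1 to 3 in the leave-one-out fits, being 1 without *SUP45* 25°C replicate 1, *SUP45* 37°C replicate 2, *sup45-ts* 25°C replicate 2 or *sup45-ts* 37°C replicate 2.

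Sugar transporter genes moved in both directions. Of 12 hexose transporter and sensor genes 9 had a higher response in *sup45-ts* and 2 a lower one, against 34.5% and 35.7% of all transcripts. The median interaction was 1.05 ± 0.23. The low-affinity transporter gene *HXT1* had 277 and 267 CPM in *SUP45* at 25°C, 186 and 183 in *SUP45* at 37°C, 322 and 276 in *sup45-ts* at 25°C, and 33.9 and 34.2 in *sup45-ts* at 37°C (interaction -2.58 ± 0.11, adjusted p = 2.1e-07). The high-affinity transporter genes *HXT6* and *HXT7*, nearly identical in sequence so that their reads cannot be separated with certainty, had 4.12 ± 0.19 and 2.37 ± 0.38. *HXT4* fell less in *sup45-ts* (interaction 1.52 ± 0.32), from 25°C values that were themselves uneven, 87.6 and 55.4 CPM in *SUP45* and 162 and 104 in *sup45-ts*.

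Amino acid biosynthesis genes had a lower response in *sup45-ts* for 28 of 42 and a higher response for 4, against 35.7% and 34.5% of all transcripts. Their medians were -0.76 and -1.21. *HIS4*, of histidine synthesis, rose 2.75-fold and 1.43-fold (interaction -0.95 ± 0.10), and *ARG1*, argininosuccinate synthetase, fell 1.72-fold and 2.89-fold (-0.75 ± 0.13). *LYS1* was not called (-0.14 ± 0.14, adjusted p = 0.384), and passed the threshold without *SUP45* 25°C replicate 1 (-0.32). *ARO2*, chorismate synthase, had the lowest value of the list, -1.80.

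Genes of respiration and the TCA cycle were mixed, with 20 lower, 10 higher and 13 not called of 43, against 35.7% lower and 34.5% higher over all transcripts. TCA cycle enzymes were among the lowest, with aconitase *ACO1* at 0.94 and -0.94 in *SUP45* and *sup45-ts* (1.49 and -0.31 under library totals) and fumarase *FUM1* at 0.38 and -1.22 (0.93 and -0.58). *ATP1*, the alpha subunit of ATP synthase, had an interaction of -1.11 ± 0.15. Citrate synthase *CIT1* went the other way (0.89 ± 0.11), as did cytochrome c1, *CYT1* (1.01), whose responses were -0.39 and 0.62 under TMM and 0.16 and 1.25 under library totals. The peroxisomal citrate synthase gene *CIT2*, whose mRNA is known to rise when mitochondria fail, had the largest interaction of the reversed genes named here, and part of its transcript model is shared with *YCR006C*. It stood at 67.6 and 77.6 CPM in *SUP45* at 25°C, 27.6 and 32 in *SUP45* at 37°C, 136 and 86.7 in *sup45-ts* at 25°C, and 1216 and 1169 in *sup45-ts* at 37°C (interaction 4.70 ± 0.27, adjusted p = 8e-07). The responses of *CIT2* were -0.73 and 4.06 under library totals.

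Of 21 antioxidant and drug efflux genes 9 had a higher and 7 a lower response, shares near the 34.5% and 35.7% of all transcripts. *TRX2*, a cytosolic thioredoxin, had 79.1 and 80.4 CPM in *SUP45* at 25°C, 245 and 289 in *SUP45* at 37°C, 61.8 and 64.1 in *sup45-ts* at 25°C and 61.5 and 67.2 in *sup45-ts* at 37°C. On the TMM scale its 3.34-fold rise was thus not seen in the mutant (interaction -1.71 ± 0.12, adjusted p = 2.3e-06). The peroxiredoxins *TSA1* and *PRX1* had -1.55 and -1.50. The glutathione transferase *GTT2* (1.85) and sulfiredoxin *SRX1* (1.79) rose further in *sup45-ts*, and the efflux transporter *FLR1* (1.91) had responses of -0.22 and 1.70 (0.33 and 2.33 under library totals). *PDR5*, a multidrug transporter, was at the threshold (0.42 ± 0.17, adjusted p = 0.0495) and was not called under RLE scaling (0.39), without the filter on low counts (0.42) or without any of 5 libraries in turn (0.31 to 0.51).

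In the cell wall list 9 of 21 genes had a higher response in *sup45-ts* (34.5% of all transcripts did) and 3 a lower one (35.7%), the latter count being 2 to 6 over the leave-one-out fits (6 without *SUP45* 25°C replicate 1). *SLT2*, the MAP kinase of the cell wall integrity pathway, rose 3.58-fold and 9.72-fold (interaction 1.44 ± 0.11), and *PST1*, a wall protein induced by wall damage, 7.36-fold and 13.3-fold. *RLM1*, the transcription factor activated by Slt2, had an interaction of 1.34 and *BAG7*, a Rho1 GTPase-activating protein, 1.85. Of 23 ergosterol genes 9 were higher, 7 lower and 7 not called, again near the shares of all transcripts. Under library totals 12 were higher and 6 lower, and under upper-quartile scaling 13 and 6. Squalene epoxidase *ERG1* had 1006 and 952 CPM in *SUP45* at 25°C, 466 and 401 in *SUP45* at 37°C, 1174 and 1077 in *sup45-ts* at 25°C, and 1356 and 1329 in *sup45-ts* at 37°C (interaction 1.43 ± 0.14). Its responses of -1.17 and 0.25 were -0.63 and 0.89 under library totals. *ERG11*, the target of azole drugs, fell less in *sup45-ts* (0.68 ± 0.15), and *ERG5*, a sterol desaturase, had the highest value, 1.97, with responses of -0.39 and 1.58 that were 0.15 and 2.21 under library totals.

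The mRNAs of both release factors fell in both strains and further in the mutant. *SUP45* mRNA (YBR143C, chromosome II, 530869 to 532182) had 678 and 726 CPM in *SUP45* at 25°C, 299 and 303 in *SUP45* at 37°C, 676 and 700 in *sup45-ts* at 25°C and 188 and 185 in *sup45-ts* at 37°C, with an interaction of -0.66 ± 0.10 (adjusted p = 0.00035). The allele is a temperature-sensitive one and its mRNA level does not check the strain labels. *SUP35* (eRF3) fell 1.92-fold and 3.88-fold, *RLI1*, the recycling ATPase, 2.36-fold and 4.18-fold, and *NAM7*, the nonsense-mediated decay (NMD) helicase Upf1, 1.83-fold and 3.01-fold. *PAB1* was not called (-0.20 ± 0.14, adjusted p = 0.217). The rescue factor *DOM34* fell a little less in *sup45-ts* (0.27 ± 0.09, adjusted p = 0.0194), a call lost without any of 4 libraries in turn (0.20 to 0.26). Over the whole list of 33 termination, rescue and NMD factors 13 responses were lower and 10 higher, shares near the 35.7% and 34.5% of all transcripts.

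Known NMD substrates tended to higher values. Of 12 tested 8 had a higher response in *sup45-ts* (34.5% of all transcripts did) and 1, *CTF13*, a lower one (-0.37), with a median interaction of 0.48 ± 0.11. *EST2*, the telomerase catalytic subunit, rose 1.37-fold and 3.12-fold, the telomere capping gene *STN1* had an interaction of 1.47 and *SPT10* one of 1.34. *ALR1*, a magnesium transporter, fell less (0.39 ± 0.08). *CPA1* had responses of -0.64 and 0.27, and it overlaps its own upstream open reading frame YOR302W, which is listed as a transcript of its own. Under library totals the responses of *CPA1* were -0.09 and 0.91.

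Among unspliced transcripts, which are listed beside their spliced forms, 160 of 325 tested had a lower response in *sup45-ts* (35.7% of all transcripts did). A higher one was called for 46 (34.5%), and the median interaction was -0.51 ± 0.11. As for *HAC1*, these values rest on how RSEM divides reads between transcripts that differ by an intron. Single interactions ran from -5.12 to 11.09, and the true levels are uncertain.

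**Figure D3:**
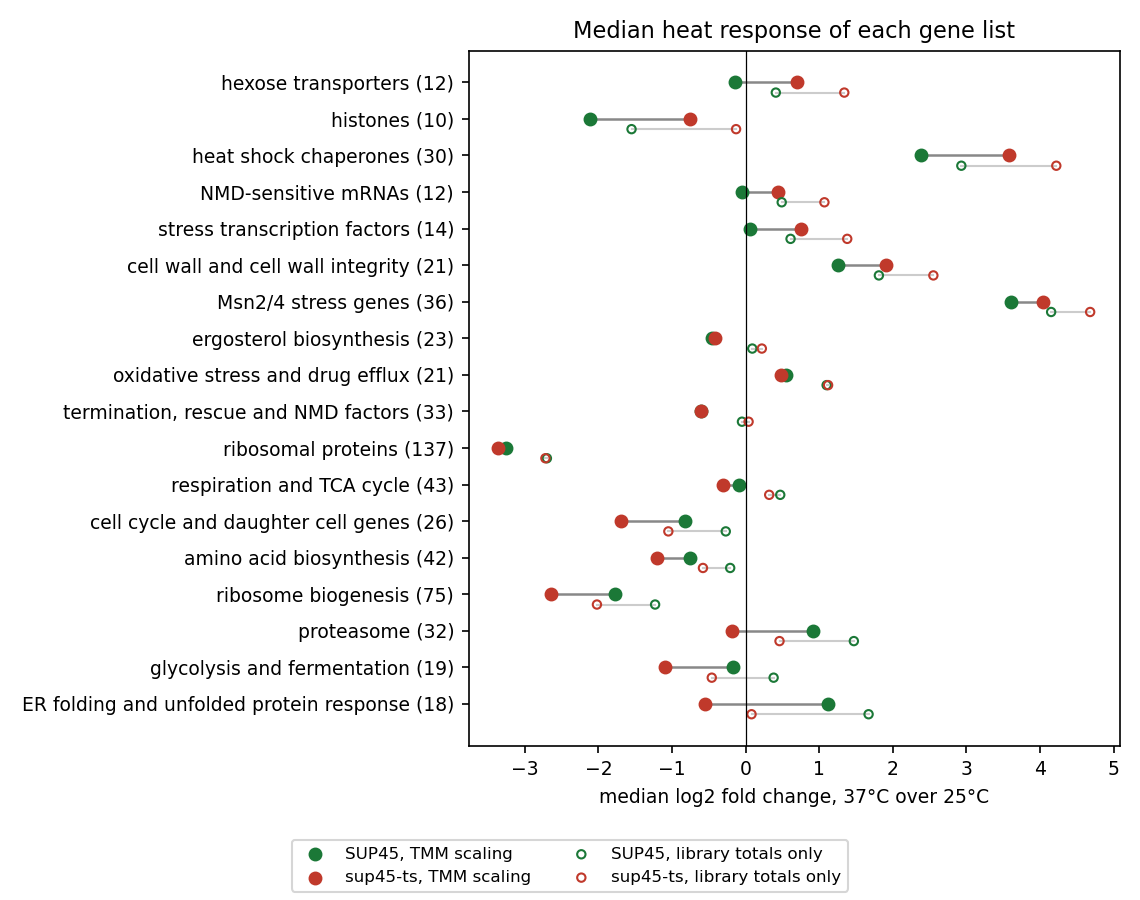
Median heat response (log2 fold change of 37°C over 25°C, x axis) of the genes of each of 18 lists in *SUP45* cells (green) and *sup45-ts* cells (red), under TMM scaling (filled) and under library totals alone (open, just below); numbers of genes tested are in parentheses. The distance between green and red is nearly the same under both scalings, whereas the position relative to 0 moves, so that the proteasome median in *sup45-ts* is -0.18 under TMM and 0.46 under library totals.

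The genes with the largest differences in each class, among spliced transcripts with a gene symbol and at least 10 FPKM in a group, included some outside these lists. Among stronger inductions, *HSP30*, a regulator of the plasma membrane proton pump, went from 1.56 and 1.73 CPM to 57.6 and 66.4 in *SUP45* and from 2.02 and 1.88 to 1791 and 2055 in *sup45-ts* (interaction 4.71 ± 0.18). *SPO24*, a small sporulation gene, had 4.63 ± 0.22. *BRP1*, a reading frame in the promoter of the proton pump gene *PMA1*, had 4.44 ± 0.29, from at most 0.324 CPM in 6 libraries to 7.37 and 7.83. Among stronger repressions, *PHO84*, the high-affinity phosphate transporter, went from 582 and 607 CPM to 397 and 437 in *SUP45* and from 479 and 343 to 31.4 and 26.8 in *sup45-ts* (interaction -3.31 ± 0.21). *RPC11*, a subunit of RNA polymerase III, had -2.69 ± 0.16.

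Among the weaker inductions was *UBC8*, a ubiquitin-conjugating enzyme of gluconeogenic enzyme turnover, at 17.6 and 15.8 CPM in *SUP45* at 25°C, 74.2 and 74.8 in *SUP45* at 37°C, 14.6 and 16.4 in *sup45-ts* at 25°C, and 16 and 15.3 in *sup45-ts* at 37°C. The response was 2.16 in *SUP45* and 0.02 in *sup45-ts* (adjusted p = 0.833 for the latter). *GSP2*, a Ran GTPase, rose 12.2-fold and 2.79-fold, and the glutaredoxin *GRX1* 5.66-fold and 1.39-fold. *SSP2*, a sporulation gene, rose 3.68-fold in *SUP45* to 14 CPM in both libraries, with 3.19 to 4.23 CPM in the other 6 libraries. Repressions that were weaker in the mutant included *OLE1*, the fatty acid desaturase, which fell 7.92-fold and 1.3-fold (interaction 2.61 ± 0.19), and *SPS4* (3.30 ± 0.17). *FRE4*, a ferric reductase, had 3.57 ± 0.53, but its *sup45-ts* libraries were far apart, at 16.8 and 37.7 CPM at 25°C and 30.8 and 61.1 at 37°C. *CIN2* was listed at nearly 0 in all 37°C libraries, and the sign of its interaction changed from 4.15 to -0.63 when its spliced and unspliced forms were summed, so no response is given for it.

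Sulfur genes were among the reversed genes that rose in *SUP45* cells and fell in *sup45-ts*. *MET17*, O-acetylhomoserine sulfhydrylase (YLR303W, chromosome XII, 732542 to 733876), had 359 and 349 CPM in *SUP45* at 25°C, 856 and 826 in *SUP45* at 37°C, 347 and 370 in *sup45-ts* at 25°C, and 81.7 and 79 in *sup45-ts* at 37°C (interaction -3.40 ± 0.10, adjusted p = 4.3e-08). Its responses under library totals were 1.80 and -1.52. *STR3*, a cystathionine beta-lyase, had -3.83 ± 0.22, and *MXR1*, a methionine sulfoxide reductase, -3.38 ± 0.21. Under library totals the responses were 3.35 and -0.40 for *STR3* and 1.59 and -1.71 for *MXR1*. *MXR1* shares a stretch of its transcript model with *YEN1*. *PBI2*, an inhibitor of a vacuolar protease, had -3.52 ± 0.13, with 3.18 and -0.26 under library totals.

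In the other direction, *ZPR1* (YGR211W, chromosome VII, 915241 to 916701), which encodes a zinc finger protein that binds elongation factor eEF1A, had 313 and 326 CPM in *SUP45* at 25°C, 164 and 155 in *SUP45* at 37°C, 337 and 349 in *sup45-ts* at 25°C, and 3757 and 4340 in *sup45-ts* at 37°C (interaction 4.56 ± 0.14, adjusted p = 4.3e-08). The serine deaminase gene *CHA1* fell 2.52-fold in *SUP45* cells and rose 6.75-fold in *sup45-ts* (4.08 ± 0.11). Under library totals the responses were -0.45 and 4.20 for *ZPR1* and -0.78 and 3.39 for *CHA1*, so both were of opposite sign under either scaling.

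Among spliced transcripts with a gene symbol and at least 10 FPKM in a group, the gained induction with the largest interaction was *ICY2* (YPL250C, chromosome XVI, 74309 to 74719), at 12.4 and 12.3 CPM in *SUP45* at 25°C, 14.1 and 16.5 in *SUP45* at 37°C, 11.4 and 10.7 in *sup45-ts* at 25°C, and 807 and 1074 in *sup45-ts* at 37°C (interaction 6.10 ± 0.20, adjusted p = 5.1e-08). *COX26*, a small subunit of cytochrome c oxidase, had 5.27 ± 0.26 and overlaps *TRM1* on the other strand. Such an overlap of 18 nt or more was found for 26 of the 86 genes named by rule, and most are not marked here. *SLZ1*, of meiotic mRNA methylation, and *ECM34* had 4.66 ± 0.26 and 4.43 ± 0.35 and were at most 0.368 CPM in the 6 other libraries. Under the same limits the gained repression with the largest interaction was *NRD1*, a factor of transcription termination at short non-coding RNAs, at 99.7 and 89.9 CPM in *SUP45* at 25°C, 84.9 and 86.8 in *SUP45* at 37°C, 91.5 and 107 in *sup45-ts* at 25°C, and 12.7 and 14.5 in *sup45-ts* at 37°C (interaction -2.73 ± 0.13). *YFH1*, the frataxin of iron-sulfur cluster assembly, had -2.66 ± 0.11, *COF1*, the actin-severing cofilin, -2.52 ± 0.22 and *MMP1*, an S-methylmethionine permease, -2.20 ± 0.15.

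**Figure D4:**
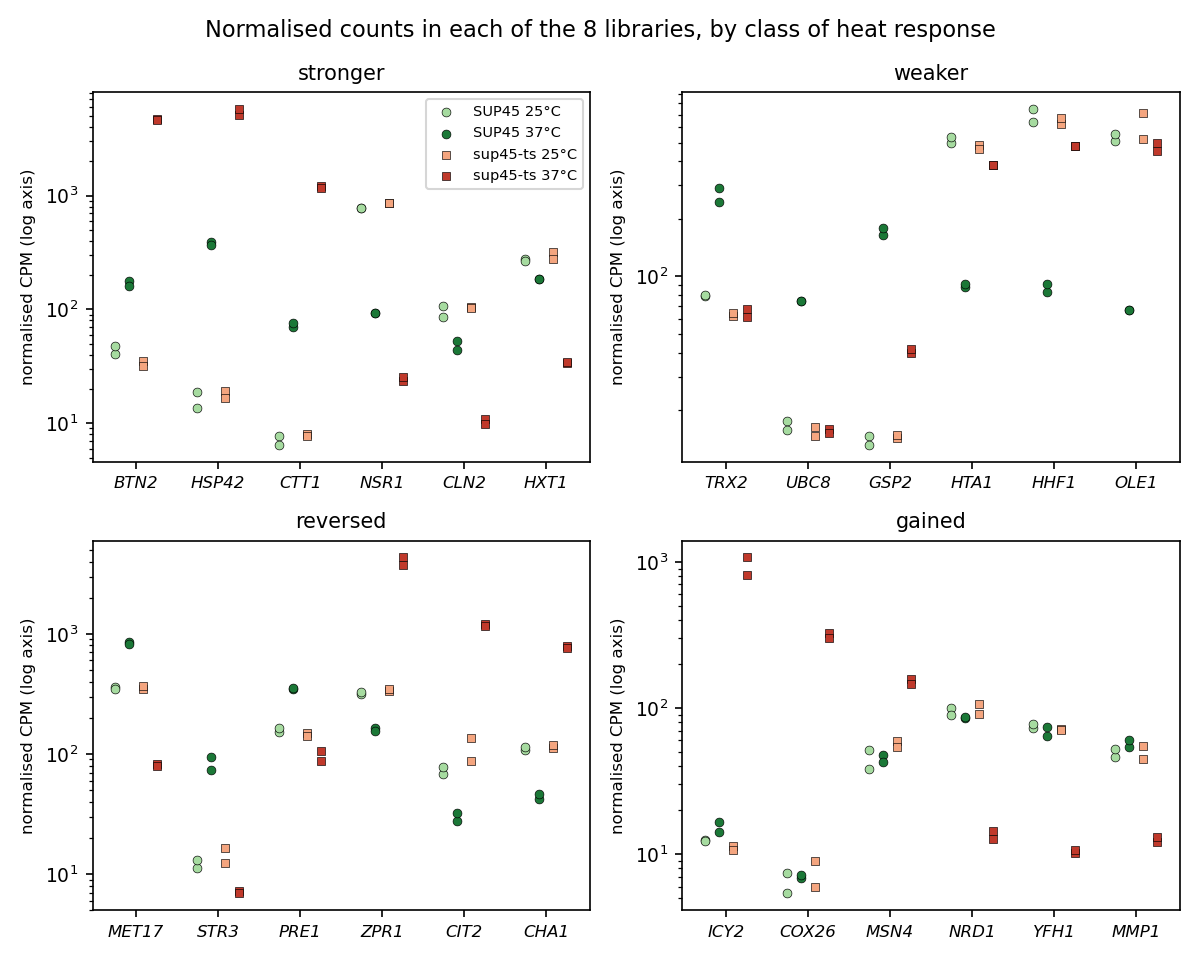
Normalised counts (CPM, log axis) in each of the 8 libraries for 6 genes of each class; the panels show the stronger, weaker, reversed and gained classes, green circles are *SUP45* and red squares *sup45-ts*, pale at 25°C and dark at 37°C, with both replicates drawn. The 25°C points of the strains lie together for most genes, while *BTN2* at 37°C reaches 178 CPM in *SUP45* against 4691 in *sup45-ts* and *MET17* reaches 856 against 81.7.

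The classes are described next by level and coding length. The median FPKM in *SUP45* cells at 25°C was 27.8 over the 6442 spliced transcripts tested. It was 102 for repressed transcripts of the stronger class and 10 for induced ones, 56.8 for reversed transcripts induced in *SUP45* cells and 13.5 for gained inductions. FPKM at 25°C enters the heat responses that sorted the transcripts, so these values are a description. Median coding lengths were 1086 nt for all and 884 to 1266 nt over the classes, against quartiles of 555 and 1770 nt for all.

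Ribosome footprints, which the sorting did not use, followed the mRNA differences for most transcripts. The footprint values were pooled over replicates for each strain and temperature, so each difference is 1 value without a replicate check or a test. Over 5072 transcripts with at least 20 coding-region footprints in every condition, the mRNA and footprint interactions correlated with r = 0.826 (rho 0.808, a description across transcripts). The readouts come from separate libraries of the same conditions. Both were made from cell lysates that may have been shared, so footprints cannot be taken as a second biological sample. The paper also reports ribosomes stalling and queuing at start and stop codons in mutant strains, which may inflate coding-region density. For its readthrough measure the paper left out footprints near both ends of each coding region. Whether the footprint values used here also leave them out was not checked. The median footprint interaction was -0.04 over all 5072 transcripts and 1.00 for stronger inductions, of which 655 of 708 were above 0. It was -0.69 for stronger repressions (906 of 1028 below 0), -0.62 and 0.68 for weaker inductions and repressions, and 1.03 and -0.60 for gained inductions and repressions. Of 285 reversed transcripts induced in *SUP45* cells 265 were below 0, and of 209 repressed ones 185 were above 0. Transcripts without a called mRNA interaction had a median of 0.07.

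For 3 lists the median footprint interaction had another sign than the mRNA. These were ergosterol genes (0.20 by mRNA and -0.14 by footprints, 14 of 23 below 0), cell wall genes (0.06 and -0.19 over the 20 of 21 with enough footprints, 12 of them below 0) and termination, rescue and NMD factors (-0.14 and 0.01). Over all transcripts 2629 of 5072 were below 0. All 32 proteasome genes had a footprint interaction below 0 (median -0.98), as did 69 of 75 ribosome biogenesis genes (median -0.70) and 17 of 18 ER folding genes (median -1.75), and 8 of 10 histone genes were above 0 (median 1.60). The 26 cell cycle and daughter cell genes split evenly, with 13 below and 13 above 0 (median -0.10). For *BTN2* the footprint interaction was 5.15, for *RPN4* 2.60, for *MET17* -3.93 and for *ZPR1* 4.67, close to the mRNA values. Some genes differed between the readouts. *HIS4* had -0.95 by mRNA and -1.65 by footprints, *ATP1* -1.11 and -2.29, *PAB1* -0.20 and -0.94, and *DOM34* 0.27 and 0.92. The sign differed for *ALR1* (0.39 and -0.85), *CYT1* (1.01 and -0.41) and *ADH2* (4.22 and -2.15), among others. With a single footprint value per condition these differences were not tested.

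**Figure D5:**
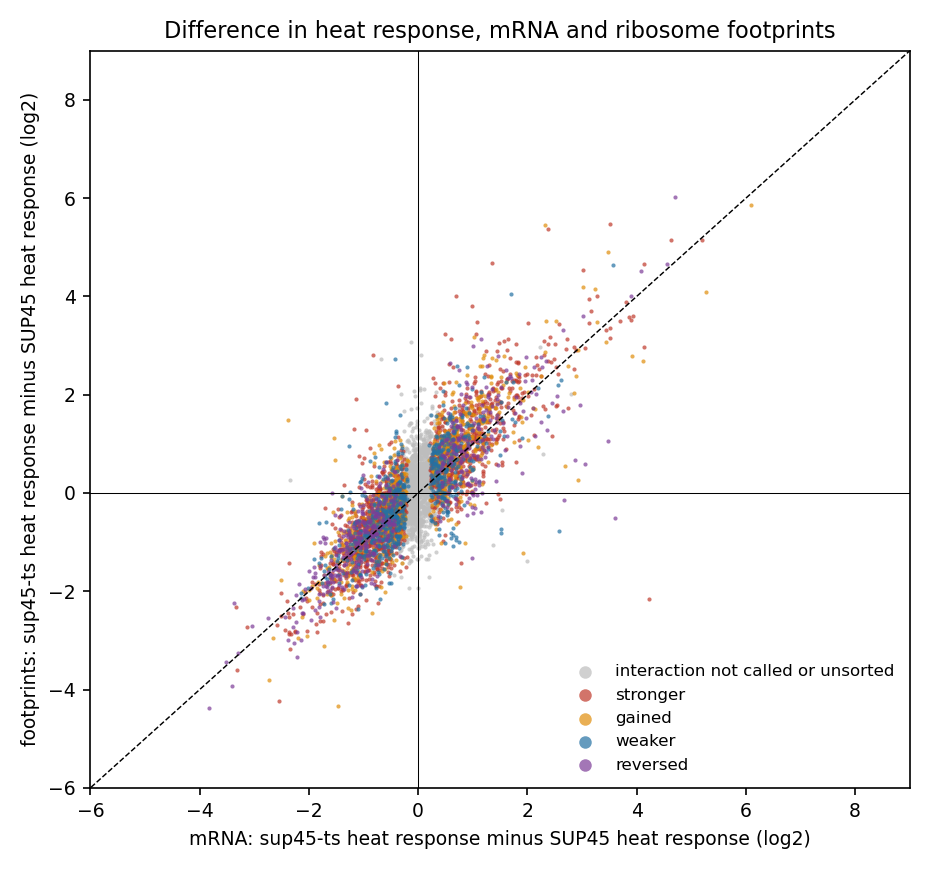
Interaction by mRNA (x axis, log2, from 8 RNA-Seq libraries) against the same difference by coding-region ribosome footprints (y axis, log2, 1 pooled value per condition) for 5072 transcripts, coloured by class of the mRNA response, with equality as the dashed line. Points follow the diagonal (r = 0.826), and transcripts without a called mRNA interaction spread vertically around a median footprint interaction of 0.07.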

How the data were processed

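Total RNA depleted of rRNA was sequenced from 2 libraries for each of 4 combinations of strain and temperature. The authors deposited RSEM expected counts and FPKM per transcript, estimated with Bowtie alignments to a yeast transcriptome built from R64. The libraries were made with a stranded kit, but the strand setting of the counting was not stated. For ribosome profiling, the authors deposited coding-region footprint counts and RPKM per transcript, pooled over replicates. The deposited tables also hold readthrough values, which were not used here.

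Expected counts were rounded and filtered (filterByExpr), leaving 6767 of 6952 transcripts, scaled by TMM and fitted with edgeR 4.0.16 (glmQLFit, 1 mean per group, all 8 libraries, R 4.3.3). Interaction and heat contrasts were tested by quasi-likelihood F tests with Benjamini-Hochberg adjustment at 0.05. Standard errors of genes are the log2 fold change divided by the square root of F. For a list, the SE comes from the spread between replicates of the list's median log2 CPM in each library. It is therefore not the error of the median of the genes' interactions, beside which it is given. Classes were defined from the 3 calls and their signs. Footprint differences used deposited RPKM of transcripts with at least 20 footprints in every condition. DESeq2 1.42.0, other scalings, no filter, a replicate block, sums per gene and leaving out each library were the alternatives.

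The gene lists, the classes and the rule for named genes were chosen with earlier results of these data known. Named were all genes marked as key in the lists, and for each class and direction the 4 largest interactions among spliced transcripts with a gene symbol, at least 10 FPKM in a group and replicate heat differences that did not overlap between strains. List members with a called interaction over 1 on the log2 scale served as examples; other list members named, such as *PYK2*, *HHO1*, *HTZ1*, *CTF13*, *CDC48*, *FLR1*, *CLB4* and unspliced *HAC1*, were chosen after their values were seen. Gene coordinates are RefSeq spans of R64, matched for 6259 of 6952 transcripts. Deviations of replicates with the same number correlated with r of -0.221 to 0.338 over 6 pairs of groups, over 0.1 in 3 of them. No source says that a number marks a shared culture or day, and no block was used. Promoter motifs of the classes were not analysed here. 1 gene that the naming rule selects is not reported here. Libraries held 107324550 to 153654244 expected counts, and the errors given come from the spread between 2 libraries per group. CPM are expected counts scaled by the TMM-adjusted library size.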

Additional observations from a re-analysis of the deposited data

Results flagged for a closer look

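Differences between the strains in the same contrast, by the test of the interaction itself (edgeR quasi-likelihood, adjusted p under 0.05), set apart 4746 transcripts, and 589 of them had called heat responses of opposite sign. Among the named genes with opposite signs, the interaction was -3.83 for *STR3*, -3.52 for *PBI2*, -3.40 for *MET17*, -3.38 for *MXR1*, -1.74 for *PRE1* and -1.50 for *PGK1*, which rose in *SUP45* cells and fell in *sup45-ts* cells. It was 4.70 for *CIT2*, 4.56 for *ZPR1*, 4.08 for *CHA1*, 3.90 for *ROX1*, 1.43 for *ERG1* and 0.91 for *CPA1*, which fell in *SUP45* cells and rose in *sup45-ts* cells. Under library totals the responses of *PRE1* were both positive, 1.69 and 0.04. With 2 libraries per group no outlier test of single libraries was made.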

How the results depend on the processing

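The total number of interaction calls changed little with the tool or scaling. Against 4746 strain by temperature calls, the replicate block gave 4810, DESeq2 4662 (4539 in common, 4405 of them in the same class), library totals 4591, and requiring an absolute interaction over 1 left 1897. Under the block the reversed class had 610 members against 589, and no count of calls moved by more than 1.5 times. Same-numbered libraries correlated in 3 of 6 pairs of groups (r over 0.1, at most 0.338), and no source pairs them. Leaving out single libraries gave 4361 to 4616 calls and a slope of 1.00 to 1.09. The calls split into 49.2% higher under TMM, 47.3% under RLE, 54.7% under upper-quartile scaling and 54.1% under library totals. Of 18 lists 8 had a median interaction above 0, and 9 under library totals and upper-quartile scaling and without *SUP45* 25°C replicate 2 or either *sup45-ts* 37°C library. Of 1290 values of named genes under alternatives 1254 had the same direction and call. The sign changed for *HSP26* without *SUP45* 25°C replicate 2 (-0.62, range -0.62 to 0.73 over libraries left out), for *LYS1* without the same library (0.01, range -0.32 to 0.01), for *TPS1* without *SUP45* 25°C replicate 1 (-0.17), *sup45-ts* 25°C replicate 2 (-0.02) or *sup45-ts* 37°C replicate 2 (-0.08, range -0.17 to 0.21), and for *CIN2* with sums per gene (-0.63). That of *KAR2*, near 0 throughout, changed under library totals (0.08), upper-quartile scaling (0.09) and the replicate block (0.00), and without *SUP45* 25°C replicate 2 (0.06), *SUP45* 37°C replicate 1 (0.07), *sup45-ts* 25°C replicate 1 (0.10) or *sup45-ts* 37°C replicate 1 (0.00), with a range of -0.10 to 0.10. The cause was not tested.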

Other observations

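A list of glucose-repressed genes and regulators was chosen after their values were seen and is given without a test. Of 23 genes 19 had a higher response in *sup45-ts* and 2 a lower one, against 34.5% and 35.7% of all transcripts. Median heat responses were 1.32 in *SUP45* and 2.69 in *sup45-ts*, with a median interaction of 1.33 (all transcripts, -0.02). The lactate dehydrogenase *CYB2* stood at 3.38 and 2.97 CPM in *SUP45* at 25°C, 56.9 and 57.3 in *SUP45* at 37°C, 3.55 and 3.66 in *sup45-ts* at 25°C, and 1062 and 924 in *sup45-ts* at 37°C. *SIP4*, an activator of gluconeogenic genes, had an interaction of 3.99 ± 0.11, and the repressor *NRG1* one of 3.92 ± 0.09, without a called response in *SUP45* cells. *ADH2*, the ethanol-oxidising dehydrogenase, had 4.22 ± 0.20 by mRNA but -2.15 by footprints, a difference that was not tested. *MIG1*, the glucose repressor, had the lowest value of the list (-0.73).

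Sulfur assimilation and methionine genes, also listed after their values were seen, did not move as a block. Of 26 genes 15 had a lower response in *sup45-ts* and 7 a higher one, against 35.7% and 34.5% of all transcripts. The median interaction was -0.70 ± 0.17. The lower ones included *MET17* (-3.40), *MET3*, ATP sulfurylase (-2.21), *CYS3*, cystathionine gamma-lyase (-1.86), and the S-adenosylmethionine synthetases *SAM1* (-2.26) and *SAM2* (-1.62), which are close paralogues. The higher ones included the sulfate permease *SUL1* (1.91), at 1.13 and 0.908 CPM in *SUP45* at 25°C, 1.77 and 2.17 in *SUP45* at 37°C, 0.963 and 0.958 in *sup45-ts* at 25°C, and 7.05 and 6.83 in *sup45-ts* at 37°C, the low-affinity methionine permease *MUP3* (1.55) and *MET16* (0.95).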
